A study of Mus musculus with 15 samples.

Results

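The genes described here carry out cell division: cyclins and their kinases, the DNA replication machinery, the proteins of the spindle and its checkpoint, and the proliferation marker *Mki67*. The list held 45 names, and every probe whose gene symbol on the array was one of them was taken. For 42 names there was a probe, 60 of 29922 probes in all. *Ccnb1*, *Foxm1* and *Cdk1* had none under these names, and *Cdc2a*, the older name of *Cdk1*, had 1. RNA of neural retinas of C57BL/6J mice was compared on 15 two-colour arrays, 3 for each of 5 comparisons, with 1 pool of 10 retinas from 5 mice in each channel. The oxygen-induced retinopathy (OIR) mice were put in 75% oxygen at P7 and returned to room air at P12, and the normal wild-type mice (N) stayed in room air from birth. P8-O/P8-N compared retinas after 1 day in oxygen, P12-O/P12-N after 5 days, and P13-O/P13-N at 24 h after the return to room air, each with normal retinas of the same age. P9-N/P30-N compared normal retinas of 2 ages, and P13-O/P9-N set the OIR retina at P13 against the younger normal retina. The mice carried no transgene, and the neural retina contains neurons, glia, vessels and immune cells together.

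A value is a normalized log2 ratio, so that 0 stands for equal levels, 1 for a doubling and -1 for a halving, and a positive value is a higher level in the sample named first. An array gives no absolute level, and the probes of different genes cannot be ranked by abundance. In RNA of whole retinas, fewer cells of a type and less RNA per cell cannot be told apart. The direction of the ratios was set by comparison with the signs printed by the study, which matched for 11 of 11 genes at P8, 18 of 19 at P13 and 15 of 15 for P9 and P30. For P12-O/P12-N and P13-O/P9-N the direction follows the same channel order in the labels and is likely. Replicate arrays correlated across all probes at r = 0.83 to 0.90 in P9-N/P30-N, 0.42 to 0.61 in P13-O/P9-N, 0.34 to 0.52 at P12, 0.04 to 0.46 at P13 and -0.21 to 0.21 at P8. All 11 rod genes on a fixed marker list had values in every comparison.

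As background, a cell commits to division when D-type cyclins activate the kinase Cdk4, which releases E2F transcription factors from the retinoblastoma protein. The E2F factors switch on genes for DNA synthesis, such as those of the Mcm helicase. Genes for mitosis are switched on later in the cycle, in large part through a promoter element called the cell cycle genes homology region (CHR) and CCAAT boxes near it. In the mouse, retinal progenitors finish dividing during the first days and weeks after birth, from the centre of the retina to its edge. Endothelial cells, astrocytes and microglia go on dividing while the vessels form, and vessel growth is halted by high oxygen in the OIR model and resumes after the return to room air.

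The promoters of 3 members with a probe that was higher at P9 than at P30 are shown to make these elements visible. The elements differ between a replication gene and genes of mitosis. The stretches end at the base before the transcription start annotated by RefSeq (GRCm38.p6), run 5′ to 3′ on the strand of the gene, and have the CHR (TTTGAA), the CCAAT box (CCAAT) and 4 E2F motifs (TTTCCCGC, TTTCGCGC, TTTGCCGC and TTTGGCGC) in capitals on either strand, so that ATTGG is a CCAAT box of the other strand.
Prc1, chr7:80294386-80294475, plus strand: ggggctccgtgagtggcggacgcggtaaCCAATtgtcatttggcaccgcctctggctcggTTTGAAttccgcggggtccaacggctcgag
Cdc20, chr4:118437344-118437433, minus strand: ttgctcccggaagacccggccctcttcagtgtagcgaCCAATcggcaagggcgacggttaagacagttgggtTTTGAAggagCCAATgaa
Mcm6, chr1:128359706-128359825, minus strand: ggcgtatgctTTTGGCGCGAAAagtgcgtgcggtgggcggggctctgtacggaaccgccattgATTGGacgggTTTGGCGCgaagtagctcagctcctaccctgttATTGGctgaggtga
*Prc1* and *Cdc20*, both genes of mitosis, had a CHR downstream of a CCAAT box. The *Mcm6* stretch had 3 matches to E2F motifs, 2 of which overlapped as TTTGGCGC and the reverse strand of TTTCGCGC, and 2 CCAAT boxes, but no CHR. *Prc1* is listed with 2 starts 25 bases apart, and the stretch of the downstream start is shown.

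In the windows from 250 bases before to 50 bases after the start, a CHR was found for 15 of the 34 members listed with a promoter (44.1%), beside 20.2% of 27025 genes. A CCAAT box was found for 27 members (79.4%, beside 41.1%), both elements for 15 (44.1%, beside 7.97%) and an E2F motif for 7 (20.6%, beside 2.61%). The E2F matches lay at *Mcm3*, *Mcm5*, *Mcm6* and *Mcm7*, *Cdc6*, *Cdk1* and *Cdk2*. The members with a CHR were mostly genes of mitosis, such as *Plk1*, *Aurka*, *Kif11* and *Ccnb2*. The replication genes *Mcm3*, *Mcm5*, *Mcm6*, *Mcm7*, *Pcna*, *Rrm1* and *Rrm2* had a CCAAT box and no CHR. The division was not complete. The replication gene *Mcm2* had a CHR, whereas *Bub1*, *Cenpe* and *Ccnb1* had a CCAAT box and no match to TTTGAA, the only form searched. Matches of letters describe the sequence and do not show that a factor binds there. Of the genes discussed below, *Cenpa* and *Bub1b* had both a CHR and a CCAAT box, *Ccnd3* had a CCAAT box alone, and *Cdk4* and *Mad2l1* had none of the motifs in this window.

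Many members were not recorded on these arrays, and the rule by which values were left blank is not known. Of the 60 probes, 20 were blank on all 15 arrays (33.3%), compared with 23.0% of all probes with a gene symbol, and 15 had a value on every array (25%, compared with 37.4%). The genes with no value on any array were *Top2a*, the topoisomerase that untangles chromosomes, *Ccnb2* and *Ccnd2*, the helicase subunits *Mcm3* and *Mcm4*, the checkpoint kinase *Bub1*, the spindle motor *Kif11*, and *Nusap1* and *Ect2*. *Cdc2a*, *Cdc6*, *Kif23*, *Mcm7* and *Tpx2* had a value on 1 array each. *Mki67*, whose protein marks cells in all active phases of the cycle, had 3 probes, and 1 of them was read on 4 arrays, at 0.39 on a P12 array, 0.41 on a P13 array, 0.16 on a P13-O/P9-N array and -0.26 on a P9-N/P30-N array. *Cdk2* was read on 2 arrays of different comparisons. The other 26 genes had at least 2 of the 3 values of some comparison and were tested there, 18 of them in all 5 comparisons.

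**Figure D1:**
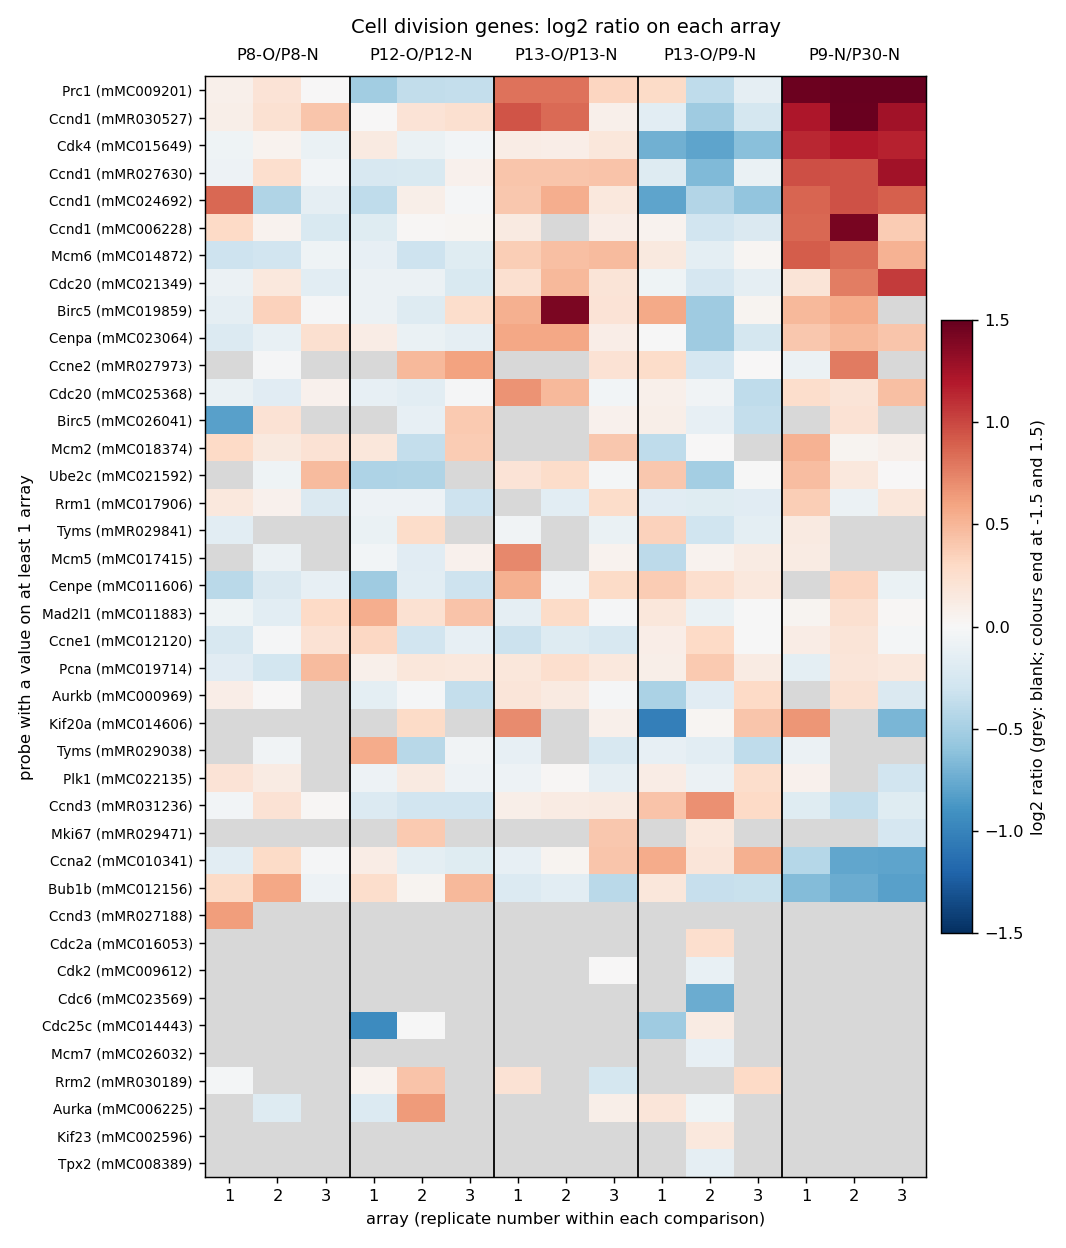
Log2 ratio of each of the 40 cell division probes with a value on some array (rows, ordered by the mean in P9-N/P30-N) on each of the 15 arrays (columns, in 5 comparisons). Red stands for a positive and blue for a negative ratio, and grey for a blank: *Prc1* and *Cdk4* are dark red on all 3 P9-N/P30-N arrays, and the lowest rows are mostly grey.

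The widest differences were between the normal retinas at P9 and P30. In P9-N/P30-N, 6 of 21 genes tested were higher at P9 and 3 were lower. By probe, 9 of 25 were higher (36.0%), 4 of them for *Ccnd1*, and 3 lower (12.0%), beside 17.5% higher and 16.2% lower of all 13818 probes tested. The median over the 25 probes was 0.21 on the log2 scale, and 20 were above 0.

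*Prc1*, which bundles microtubules of the central spindle so that a cell can be cut in 2, read 1.47, 1.72 and 1.77 on the 3 P9-N/P30-N arrays. The mean was 1.65 (SE 0.12, n = 3), which is a 3.15-fold higher level at P9 (limma adjusted p = 2.4e-07). *Cdk4*, the kinase that D-type cyclins activate, read 1.13, 1.20 and 1.15, with a mean of 1.16 (SE 0.07), 2.23-fold higher (adjusted p = 2.3e-08). The 3 arrays of *Cdk4* lay within 0.1 of each other. *Ccnd1*, the D-type cyclin that retinal progenitors use most in the mouse, had 4 probes, and all 4 were higher at P9. Their means were 0.89, 0.91, 1.06 and 1.32, that is 1.85-fold to 2.49-fold, with adjusted p from 5.3e-06 to 0.0015. The probe with the lowest mean was also the most uneven, at 0.86, 1.42 and 0.38.

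The helicase subunit gene *Mcm6* read 0.91, 0.84 and 0.52, with a mean of 0.76 (SE 0.09), 1.69-fold higher (adjusted p = 1.5e-05). *Cdc20*, which activates the ubiquitin ligase that starts anaphase, had 2 probes tested. One read 0.20, 0.77 and 1.05, with a mean of 0.67 (SE 0.12, adjusted p = 0.00083), and the other 0.26, 0.20 and 0.45, with a mean of 0.30 that did not pass (SE 0.12, adjusted p = 0.066). *Cenpa*, the histone H3 variant of centromeres, read 0.41, 0.48 and 0.42, with a mean of 0.43 (SE 0.12, adjusted p = 0.011, and 0.061 without replicate 2). For each of these genes all arrays were above 0, and for *Cenpa* they hardly differed.

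The 3 members lower at P9 were each lower on all 3 arrays. *Bub1b*, a protein of the spindle checkpoint, read -0.65, -0.74 and -0.81, with a mean of -0.73 (SE 0.13, adjusted p = 0.00047). *Ccna2*, the cyclin of S and G2 phase, read -0.43, -0.78 and -0.80, with a mean of -0.67 (SE 0.12, adjusted p = 0.00071). *Ccnd3* read -0.19, -0.36 and -0.18, with a mean of -0.24 (SE 0.08, adjusted p = 0.029). The call of *Ccnd3* was lost without any 1 of the arrays, at adjusted p of 0.058 to 0.20. *Ccnd3* and *Ccnd1*, both D-type cyclins, thus differed between the ages in opposite directions. The sliding clamp *Pcna*, read on every array at -0.15, 0.19 and 0.16, was not called.

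**Figure D2:**
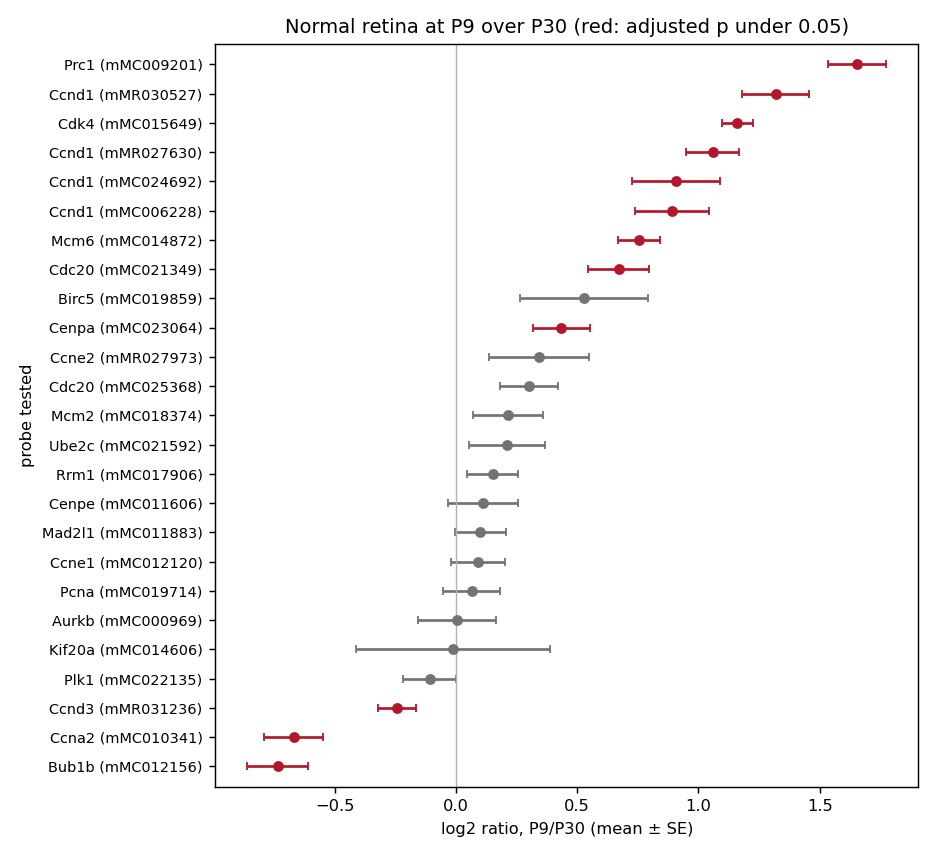
Mean log2 ratio of normal retina at P9 over P30 with its SE (x axis) for each of the 25 cell division probes tested (y axis). The 12 probes in red passed an adjusted p of 0.05: *Prc1* stands at 1.65, *Cdk4* and the 4 *Ccnd1* probes between 0.89 and 1.32, and *Bub1b*, *Ccna2* and *Ccnd3* lie below 0.

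Other cell cycle genes were counted on lists of their own in the same comparison. Of the DNA replication genes outside the list, 4 of 19 tested were higher at P9 and 4 lower. *Rpa3*, a subunit of the single-strand DNA binding complex, was higher (0.57), whereas *Rpa1*, another subunit of it, was lower (-0.51), and *Mcm10* was lower as well (-0.72). Of the other mitosis and cytokinesis genes, 8 of 25 were higher and 4 lower. The lowest values were those of *Spag5*, which encodes a spindle protein, at -2.59, -2.84 and -2.58 on the 3 arrays, and of the kinetochore gene *Spc25*, with a mean of -1.67. At P9 both genes were further below their P30 level than any cell division gene of the main list. Of the inhibitors of the cycle and the retinoblastoma family, 6 of 10 were higher at P9 and 2 lower, with *Cdkn1c*, the inhibitor p57, at 1.13 and *Cdkn1a*, the inhibitor p21, at 0.98 and 0.87 on 2 probes. Of the G1 kinases, E2F factors and partners, 4 of 13 were higher and 0 lower. They were the Myc family gene *Mycl* at 2.39, the kinase *Cdk6* at 0.87, *E2f3* at 0.41 on the probe called and *E2f1* at 0.33. The *E2f3* probes disagreed: another read -0.25 and -0.10, and 1 more read 0.35 and 0.04, without a call. The medians of these 4 lists were 0.16, 0.07, 0.50 and 0.18, beside 0.21 for the cell division probes. Of the probes tested, 38.1%, 48.1%, 78.6% and 25% were called in either direction, beside 48% of the cell division probes. Of all probes, 17.5% were higher and 16.2% lower.

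Marker genes of several cell types also differed between P9 and P30. The shares of all probes were 17.5% higher and 16.2% lower, as above. All 5 young neuron genes tested were higher at P9, with array medians of 1.17 to 1.98, and 10 of 11 rod genes were lower, with array medians of -1.05 to -0.94. Of the retinal progenitor genes, 6 of 10 were higher and 0 lower, of the endothelial genes 7 of 12 were higher and 1 lower, of the microglia and macrophage genes 5 of 8 were higher, and all 3 pigment epithelium genes were higher. Of 7 Mueller glia genes, 3 were higher and 4 lower. Their part in the differences of the cell division genes was not tested.

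At P13, 24 h after the mice had left the oxygen chamber, 3 of 22 genes tested were higher in the OIR retina and 0 were lower. The 3 probes called were 11.1% of the 27 tested, beside 0.963% higher and 0.547% lower of all 14436 probes. The median of the 27 probes was 0.15 on the log2 scale, and 21 were above 0. The medians over the members with a value were 0.21 and 0.28 on the first 2 arrays and 0.10 on replicate 3, which had a value for 17802 probes against 13953 and 12242.

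*Prc1* read 0.82, 0.81 and 0.32 in P13-O/P13-N, with a mean of 0.65 (SE 0.12, n = 3), a 1.57-fold higher level in the OIR retina (adjusted p = 0.016). *Ccnd1* read 0.94, 0.85 and 0.08 on the probe that was called, with a mean of 0.63 (SE 0.14, adjusted p = 0.039). The other 3 *Ccnd1* probes had means of 0.42, 0.37 and 0.11 (2 arrays) and were not called, although every value of the 4 probes was above 0. *Mcm6* read 0.37, 0.45 and 0.48, with a mean of 0.43 (SE 0.09), 1.35-fold higher (adjusted p = 0.024). The values of *Mcm6* were even across the 3 arrays, whereas *Prc1* and *Ccnd1* were lowest on replicate 3. Without replicate 1 or without replicate 2 none of the 3 genes was called, with adjusted p up to 0.21 for *Prc1* and *Mcm6* and 0.38 for *Ccnd1*. Without replicate 3, 4 genes were called, *Prc1*, *Ccnd1*, *Cenpa* and *Cdc20*, and the call of *Mcm6* was lost there too (adjusted p = 0.063). None of the 3 probes passed SAM, in which 1 other *Ccnd1* probe was called. A limma fit of the P13 arrays alone called 0 genes, and 9 of the 27 probes had an unadjusted p under 0.05 in the fit of all arrays.

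Several probes that were not called at P13 had an unadjusted p under 0.05. *Cenpa* read 0.58, 0.58 and 0.10 (mean 0.42, SE 0.12, adjusted p = 0.12). *Cdc20* read 0.67, 0.48 and -0.04 on 1 probe (mean 0.37, adjusted p = 0.19) and 0.24, 0.49 and 0.19 on the other (mean 0.31, adjusted p = 0.34). *Birc5*, known as survivin, which serves the chromosomal passenger complex in mitosis, read 0.53, 1.42 and 0.21 (mean 0.72, SE 0.22, adjusted p = 0.17). The first 2 arrays were above replicate 3 for all 4 of these probes. *Pcna*, at 0.17, 0.25 and 0.16, and *Cdk4*, at 0.11, 0.10 and 0.17, were above 0 on every array by less. *Bub1b* read -0.21, -0.16 and -0.41 (adjusted p = 0.44), and the cyclin *Ccne1*, which acts at the entry to S phase, -0.32, -0.19 and -0.24 (adjusted p = 0.38). Both were below 0 on every array without a call.

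**Figure D3:**
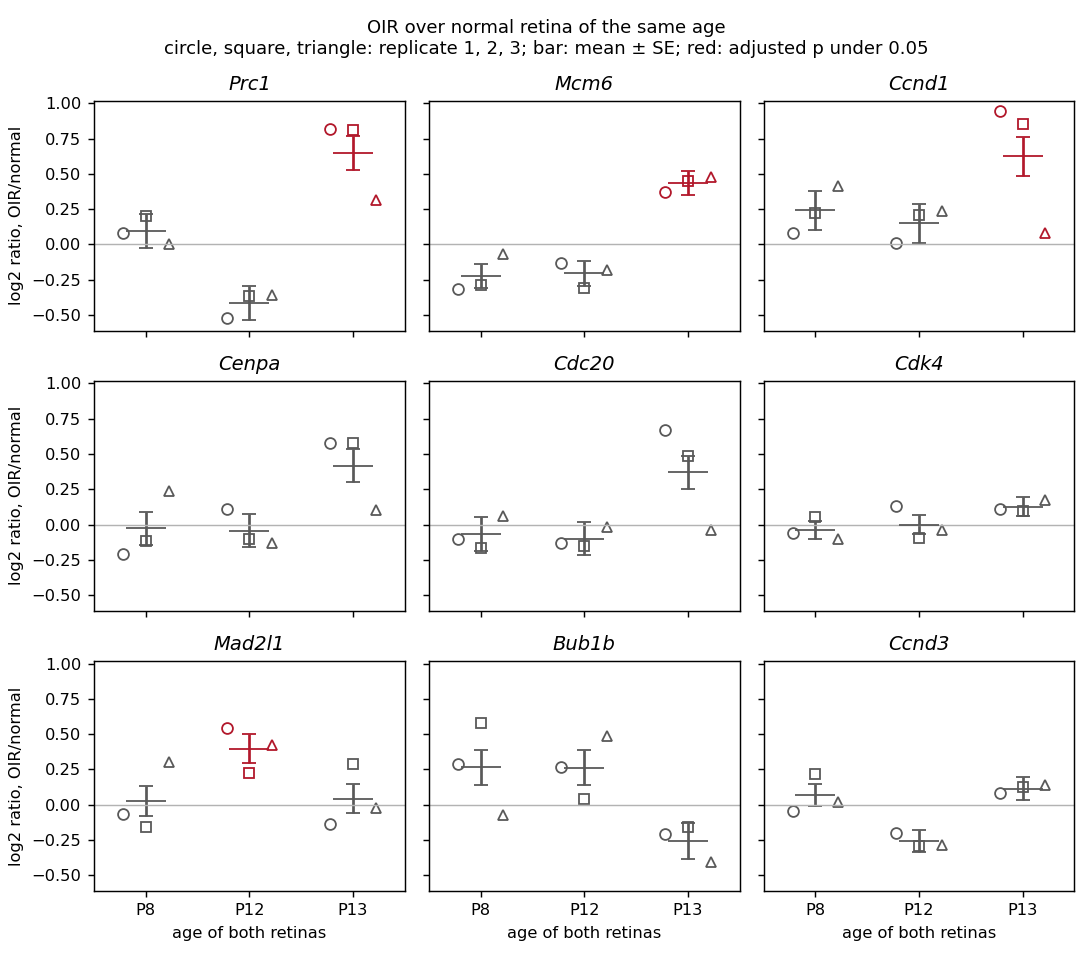
Log2 ratio of OIR over normal retina of the same age (y axis) at P8, P12 and P13 (x axis) for 9 cell division genes, 1 probe each, with 3 arrays per age (symbols) and the mean and SE (bars). Red marks an adjusted p under 0.05: *Prc1* is below 0 on all P12 arrays and above 0 on all P13 arrays, and *Mcm6* lies below 0 at P8 and P12 and near 0.4 at P13.

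In the hyperoxic phase few member probes were called. Of all probes, few were called at P8, whereas at P12 528 were higher and 641 lower. Replicate arrays at P8 correlated at r = -0.21 to 0.21, so the lack of calls there does not show equal levels. At P8, 0 of 19 genes tested were called in either direction by limma and 0 by SAM, beside 0.205% higher and 0.432% lower of all 13659 probes, and 1 of 24 member probes had an unadjusted p under 0.05. The means ranged from -0.30 to 0.26, with SE of 0.07 to 0.24. The 1 probe was that of *Mcm6*, at -0.31, -0.29 and -0.07 (mean -0.22, SE 0.09, adjusted p = 0.36). Array-to-array differences at P8 were large for some probes, as for 1 *Ccnd1* probe that read 0.86, -0.46 and -0.13.

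At P12, 1 of 25 genes tested was higher and 0 were lower, that is 3.23% of 31 probes, beside 3.2% higher and 3.88% lower of all 16516 probes. The gene was *Mad2l1*, which encodes the checkpoint protein Mad2, at 0.54, 0.23 and 0.43, with a mean of 0.40 (SE 0.11), 1.32-fold higher (adjusted p = 0.038, and up to 0.24 without replicate 1 or without replicate 3). *Prc1* was below 0 on all 3 arrays, at -0.52, -0.36 and -0.36, and did not pass (mean -0.42, SE 0.12, adjusted p = 0.055). *Ccnd3*, at -0.20, -0.29 and -0.28 (mean -0.26, adjusted p = 0.064), and the kinetochore motor gene *Cenpe*, at -0.53, -0.16 and -0.31 (mean -0.33, adjusted p = 0.10), were likewise below 0 on all arrays without a call. *Cdk4* gave 0.13, -0.10 and -0.04. Of the 31 member probes, 7 had an unadjusted limma p under 0.05, beside 3877 of all 16516 probes. At this age 11 of 16 endothelial genes were lower in the OIR retina, with array medians of -0.80 to -0.62, and 0 were higher. Also lower were 4 of 11 rod, 2 of 5 pericyte, 1 of 9 Mueller glia and 1 of 10 retinal progenitor genes. Higher were 1 of 10 microglia and macrophage genes and 1 of 4 astrocyte genes. The part of these cell types in the values of the cell division genes was not tested.

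Differences between the ages in the OIR over normal ratio were tested directly. From P12 to P13 the ratio of *Prc1* rose by 1.07 on the log2 scale (SE 0.17), a 2.09-fold change (adjusted p = 0.006), with no overlap between the arrays of the 2 ages. The ratio of *Mcm6* rose by 0.64 (SE 0.12, adjusted p = 0.018). These were the 2 genes called of 21, with 0 lower, beside 1.78% of all 14126 probes higher and 0.772% lower. The call of *Mcm6* was lost without P12 replicate 3 or without P13 replicate 2, with adjusted p up to 0.076, and that of *Prc1* was kept without each array in turn (adjusted p up to 0.039). From P8 to P13 the ratio of *Mcm6* rose by 0.66 (SE 0.12, adjusted p = 0.014), the 1 gene called of 18, beside 1.13% of all probes higher and 0.363% lower. It was not called without P8 replicate 1 or 2 or without P13 replicate 2 (adjusted p up to 0.07). All 3 P13 arrays were above all P8 and P12 arrays for *Mcm6*. Such separation, for *Prc1* also, describes the same values that gave the calls and is not added support. *Prc1* gave a difference of 0.56 from P8 to P13 (SE 0.17, adjusted p = 0.17). From P8 to P12, 0 of 19 genes were called by limma, beside 0.0295% higher and 0.00737% lower of all probes, and 4 of the 24 member probes had an unadjusted p under 0.05. The contrasts of P13 with the earlier ages share the P13 arrays.

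Among the other cell cycle lists at P13, the replication genes had 0 of 23 called, with 13 of 26 probes above 0. Of all 14436 probes tested at P13, 0.963% were called higher and 0.547% lower. The mitosis genes had 1 of 28 higher, *Sgol2*, which protects the cohesin of centromeres (0.46, adjusted p = 0.041), and 1 lower, *Spag5* (-0.62, -0.72 and -0.64 on the 3 arrays, adjusted p = 0.0011). The inhibitors had 1 of 11 higher, *Cdkn1a*, which read 0.53, 1.05 and 0.48 on the probe called (mean 0.69, adjusted p = 0.025), and the G1 list had 0 of 12. At P12 the replication list had *Rpa3* (0.38) and *Orc6* (0.35) higher of 26 genes. The G1 list had *Mycl* (0.58) and *E2f3* (0.37 on the probe called) higher of 14. These were 6.9% and 11.1% of the probes tested of each list, beside 3.2% higher and 3.88% lower of all probes. The *E2f3* probes not called read -0.10, 0.01 and 0.10, and -0.03, 0.12 and 0.54 on the P12 arrays. At P8 none of the 4 lists had a call in limma, beside 0.205% higher and 0.432% lower of all probes. In the marker lists at P13, 2 of 9 microglia and macrophage genes were higher, with array medians of 0.25 to 0.29, 2 of 9 Mueller glia genes were higher and 1 lower, 1 of 10 retinal progenitor genes was higher, and 4 of 13 endothelial genes were lower, with array medians of 0.00, -0.34 and -0.30. The part of these cell types in the P13 values of the cell division genes was not tested.

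P13-O/P9-N set the OIR retina at P13 against a normal retina 4 days younger. Of 25 genes tested, 2 were higher and 1 was lower, that is 6.45% and 3.23% of 31 probes, beside 4.55% higher and 3.96% lower of all 18848 probes. *Cdk4* read -0.72, -0.79 and -0.62, with a mean of -0.71 (SE 0.07), so that its level was 1.64-fold lower in the P13 OIR retina (adjusted p = 1.6e-05). *Ccnd3* read 0.43, 0.69 and 0.30, with a mean of 0.47 (SE 0.08, adjusted p = 0.0019, and 0.074 in a fit of this comparison alone). *Ccna2* read 0.56, 0.18 and 0.53, with a mean of 0.43 (SE 0.12, adjusted p = 0.046, up to 0.22 without replicate 1 or without replicate 3, and 0.10 in the fit of this comparison alone). All 3 genes had 1 sign on every array. *Prc1*, at 0.28, -0.38 and -0.13, and *Mcm6*, at 0.15, -0.15 and 0.03, lay on both sides of 0. The 4 *Ccnd1* probes had means of -0.61, -0.32, -0.32 and -0.15, with 1 of their 12 values above 0 and none called (lowest adjusted p = 0.056). Rod genes were higher in the same comparison, 9 of 11, as were 5 of 9 Mueller glia genes, with array medians of 0.18 to 0.34, and young neuron genes were lower, 5 of 6. Among 11 retinal progenitor genes, 2 were lower, *Hes5* (-0.83) and *Sfrp2* (-0.39), and 1 was higher, *Nes* (0.44). Their part was not tested.

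This comparison and P13-O/P13-N have the P13 OIR retina in common, so their difference gives the normal retina at P13 over that at P9. By this route 4 of 21 genes were lower at P13 and 0 higher, and 6 of 26 probes were lower (23.1%), beside 1.71% lower and 2.83% higher of all 14398 probes. *Cdk4* had a difference of -0.84 (SE 0.09), a 1.79-fold lower level (adjusted p = 0.00018), which was kept without each array in turn. *Ccnd1* was lower on 3 of 4 probes, with differences of -0.74, -0.94 and -0.98 (adjusted p of 0.013, 0.013 and 0.046). *Prc1* had a difference of -0.73 (SE 0.17, adjusted p = 0.027) and *Cenpa* of -0.68 (SE 0.17, adjusted p = 0.032). The P13-O/P13-N arrays enter here with the sign turned. The lower values of *Prc1* and *Ccnd1* in the normal retina and their higher values in the OIR retina are therefore not independent results. *Prc1* and *Cenpa* each lost the call without any 1 of 4 of the 6 arrays, among them P13-O/P13-N replicates 1 and 2 (adjusted p up to 0.12 and 0.13), and the *Ccnd1* probe at -0.98 without any 1 of 5 (up to 0.16). Of the other 2 *Ccnd1* probes, that at -0.74 lost it without P13-O/P9-N replicate 2 (0.052) and that at -0.94 without this array or P13-O/P13-N replicate 1 or 2 (up to 0.064).

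**Figure D4:**
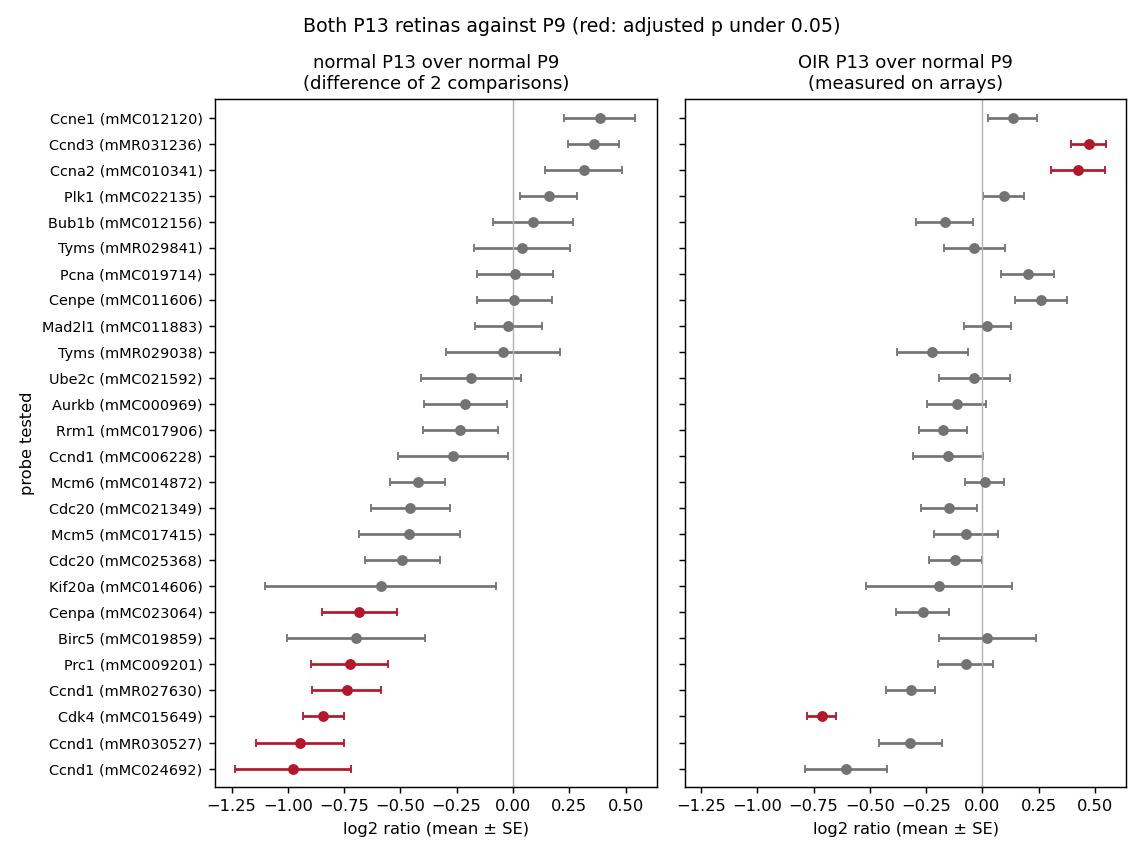
Mean log2 ratio with its SE (x axes) of normal P13 over normal P9, a difference of 2 comparisons (left), and of OIR P13 over normal P9, measured on arrays (right), for the 26 cell division probes tested in both (y axis). Red marks an adjusted p under 0.05: *Cdk4* is red at -0.84 and at -0.71, whereas *Prc1* stands at -0.73 on the left and at -0.07 on the right.

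The sum of P13-O/P9-N and P9-N/P30-N, which have the P9 retina in common, gives the P13 OIR retina over the normal retina at P30. By this sum 4 of 21 genes were higher and 1 lower, and 5 of 25 probes were higher (20.0%) and 1 lower (4%), beside 4.67% and 4.52% of all 13798 probes. *Prc1* stood at 1.58 (SE 0.17), 2.99-fold higher than at P30 (adjusted p = 0.00011), *Mcm6* at 0.77 (SE 0.12, adjusted p = 0.0017), *Ccnd1* at 0.74 and 1.00 on 2 of 4 probes (adjusted p = 0.0082 and 0.0059) and *Cdk4* at 0.45 (SE 0.09, adjusted p = 0.0081). *Bub1b* was lower, at -0.90 (SE 0.18, adjusted p = 0.0063). The calls of *Cdk4*, *Bub1b* and *Ccnd1* were lost when the arrays were scaled to the same spread, and all were kept without each array in turn.

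The 10 genes called in at least 1 of the 5 comparisons followed different courses. *Cdk4* was higher at P9 than at P30 and lower in the P13 OIR retina than at P9, with ratios of -0.10 to 0.17 on every array between OIR and normal retinas of the same age. *Prc1*, *Mcm6* and *Ccnd1* were higher both at P9 than at P30 and in the P13 OIR retina than in the normal one. *Ccna2* and *Ccnd3* were lower at P9 than at P30 and higher in the P13 OIR retina than at P9. The P9-N pools are likely shared by P9-N/P30-N and P13-O/P9-N, on opposite sides of the ratio. The opposite signs of *Cdk4*, *Ccna2* and *Ccnd3* in these comparisons are therefore not independent results. *Bub1b* was called lower at P9, *Cdc20* and *Cenpa* higher at P9, and *Mad2l1* higher at P12, with no other call among the 5 comparisons. The 16 genes tested without a call had means of -0.47 to 0.72, among them the ribonucleotide reductase genes *Rrm1* and *Rrm2*, the thymidylate synthase gene *Tyms*, the mitotic kinases *Plk1*, *Aurka* and *Aurkb*, the cyclins *Ccne1* and *Ccne2*, and *Mcm2*, *Mcm5* and *Pcna*.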

How the data were processed

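The deposited values are log2 ratios of both channels that the authors had normalized, for 29922 probes on Phalanx arrays. Their normalization, background correction and rule for blanks are not given in the sources used here, nor whether a value holds 1 or both of the dye orientations that were hybridised. The P9 and P30 arrays were inverted. Probes were named through the platform annotation (21020 with 1 symbol). The members and gene lists were chosen with earlier results of these data known. All members are accounted for, and those called are named with their values. Of the other lists, up to 4 called genes are named.

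The 15 arrays were fitted together, with a mean for each comparison, in limma 3.58.1 under R 4.3.3, for probes with a value on at least 2 of 3 arrays. Means were tested against 0, two-sided, with Benjamini-Hochberg adjustment of p over all probes tested. An adjusted p under 0.05 was a call, with no limit on the fold, and a gene was called when its called probes had 1 sign. Alternatives were SAM (one-class, false discovery rate 1%), other fits, scalings and filters. Each pool came from 1 litter. The pools of P13-O and P9-N are likely shared between comparisons, whereas the fit takes arrays as independent. The fit was tested on simulated data. An array held 12008 to 21189 values, and the number of arrays limits the precision. Promoters came from RefSeq and were searched in Python 3.11.15. Figures were drawn with matplotlib 3.10.9.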

Additional observations from a re-analysis of the deposited data

Results flagged for a closer look

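*Mcm6* and *Prc1* were picked out because their ratio of OIR to normal retina differed between ages in a direct test of the difference. For *Mcm6* the log2 ratio was higher at P13 than at P8 by 0.66 (limma adjusted p = 0.014) and than at P12 by 0.64 (adjusted p = 0.018). Both calls were lost without some single arrays (adjusted p up to 0.07 and 0.076). They were also lost in a separate limma fit (0.12 and 0.073). For *Prc1* the log2 ratio was higher at P13 than at P12 by 1.07 (adjusted p = 0.006), a call kept without each array in turn. Groups of 3 arrays are too small for a test of single outlying arrays.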

How the results depend on the processing

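Of 34 calls on member probes in the comparisons and contrasts, 20 were kept without each array in turn, 22 in a separate fit per comparison and 30 with the replicate number as a block. None changed direction in a setting tried. The number of member genes called was 9 in P9-N/P30-N and 7 to 11 in the alternatives. At P13 it was 3, with 0 in a separate fit and at an adjusted p under 0.01, 1 in SAM (*Ccnd1*, on a probe that limma did not call), 6 with array weights and 0 to 4 without 1 array. At P12 it was 1, with 0 in a separate fit, with a 1.5-fold cutoff, at an adjusted p under 0.01, in SAM and with the arrays scaled to equal spread, 2 with array weights, 3 over probes with values on all 15 arrays and 0 to 1 without 1 array. At P8 it was 0, and 1 with array weights. In P13-O/P9-N it was 3, with 1 under a 1.5-fold cutoff and in SAM, 5 with array weights and 2 lower and 0 higher in a separate fit, where *Ccna2* and *Ccnd3* were not called. For P13 against P8 it was 1, with 0 in a separate fit and at an adjusted p under 0.01, 6 with array weights and 0 to 3 without 1 array. For P13 against P12 it was 2, with 1 in a separate fit and at an adjusted p under 0.01, 3 with arrays scaled to the same spread, 6 with array weights, 4 over probes with values on all 15 arrays and 1 to 4 without 1 array. For normal P13 over P9 it was 4, with 2 in a separate fit, 1 at an adjusted p under 0.01, 7 with array weights and 1 to 5 without 1 array. For OIR P13 over P30 it was 5, and 2 with arrays scaled to the same spread. The causes were not tested.

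The replicate numbers were not taken to pair arrays. In 30 same-numbered pairs of arrays the deviations from the comparison means had r = -0.19 to 0.21, above 0.1 in 5 pairs. For P13-O/P13-N with P13-O/P9-N, which likely share P13-O pools, r was 0.21, -0.03 and 0.19, the highest of all pairs among them. With the replicate block, 0 genes were called at P12, 2 at P13, 2 in P13-O/P9-N and 9 in P9-N/P30-N. Blank probes limit what can be said of the members not read, *Mki67* and *Top2a* among them.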
